A study of Schizosaccharomyces pombe with 6 samples.

Results

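The RNAs described here come from 10 fission yeast genes of meiosis whose transcripts are targets of the RNA-binding protein Mmi1: *mei4*, *ssm4*, *rec8*, *spo5*, *crs1*, *mug8*, *mug9*, *mug10*, *mcp5* and *mcp7*. They were chosen by name, and they are 10 of the 6986 gene IDs in the deposited count table. The files list 9 of them under these names, whereas *mcp5* is listed as *num1*, with *mcp5* among its other names. Poly(A)+ RNA was sequenced from 3 biological replicates of *spx1*Δ cells (strain BS53, *h+ spx1∆::kanMX*) and 3 of wild-type cells (strain AGP73, *h+*), all from log-phase cultures at 30°C in the rich medium YES and labelled as vegetative. The study's strain list gives *leu1-32*, *ura4-D18*, *his3-D1* and 1 of the *ade6* alleles *m216* and *m210* for the strains it holds, BS53 among them. *spx1* encodes a protein with an SPX domain, which binds inositol pyrophosphates, and a RING finger of the ubiquitin ligase type. Each genotype is a single strain, so any other difference between the strains cannot be told apart from the loss of *spx1*. The p-values rest on the spread among replicate cultures of these strains.

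In mitotic fission yeast, many meiotic genes are transcribed at a low level and their RNAs are destroyed. Mmi1, a nuclear protein with a YTH domain, binds a region of these RNAs called the determinant of selective removal (DSR), and the nuclear exosome degrades them with the help of Red1, the poly(A) polymerase Pla1 and the poly(A)-binding protein Pab2. In meiosis Mei2 and the noncoding meiRNA, made from *sme2*, sequester Mmi1, and the transcripts accumulate.

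The core of a DSR is the hexamer UNAAAC, read as TNAAAC in DNA, in repeated copies. It was counted on the sense strand of the spliced transcripts of RefSeq build ASM294v3, which is a later build than the ASM294v2 used for counting, so every coordinate here is of ASM294v3. All 10 genes matched this annotation. The stretches of 150 coding bases with the most hexamers in *mei4* and *mug9* are shown first, because these are the gene with the largest rise and the gene with the densest hexamers. They hold 5 and 4 copies, and capitals mark each TNAAAC.
mei4, chrII:1473870-1474019, plus strand: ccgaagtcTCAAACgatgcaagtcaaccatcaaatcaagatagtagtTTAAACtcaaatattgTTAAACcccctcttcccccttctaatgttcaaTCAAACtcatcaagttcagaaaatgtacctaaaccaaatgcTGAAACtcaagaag
mug9, chrIII:2369272-2369421, minus strand: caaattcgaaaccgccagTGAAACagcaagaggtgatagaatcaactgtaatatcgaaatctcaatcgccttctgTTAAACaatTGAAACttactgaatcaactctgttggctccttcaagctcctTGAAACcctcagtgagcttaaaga
For the other 8 genes, the 30 bases with the most hexamers are shown, with the same use of capitals, to let the spacing and the variable second base be compared. Each of these windows holds 2 copies apart from that of *spo5*, which holds 3, the first of them directly followed by the next. The *spo5* window lies in the 3′ untranslated part of the transcript, and 6 of the others are coding. The *mcp7* window reaches the start of the coding sequence only at its far end, and it holds no full ATG.
ssm4, chrI:4535152-4535181, minus strand: cgagTTAAACagtgcaaaatTGAAACtatc
rec8, chrII:2570149-2570178, plus strand: tgaaaagcTCAAACcaTCAAACaatactcc
spo5, chrII:2538099-2538128, plus strand: atacTCAAACTTAAACcaacaTAAAACctg
crs1, chrII:3452379-3452408, minus strand: ctgcagaTGAAACttataTTAAACactcaa
mug8, chrI:2446813-2446842, plus strand: gatcttTTAAACgtatttTAAAACcaagaa
mug10, chrI:1371143-1371172, plus strand: ttTTAAACcgtcatttggcaccTCAAACta
mcp5, chrII:899376-899405, plus strand: acaagtcaTTAAACtttTCAAACcgactaa
mcp7, chrI:578492-578521, plus strand: gtTCAAACtaattaataaatttTTAAACaa

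Every one of the 10 transcripts was rich in the hexamer. The count was 19 in *mcp5*, 15 in *rec8*, 14 each in *spo5* and *mug8*, 13 in *ssm4*, 11 in *mei4*, 10 in *mcp7*, 9 in *mug9*, 8 in *crs1* and 7 in *mug10*. Per kilobase of transcript the density was lowest in *mei4*, at 4.96, and highest in the short *mug9* transcript, at 13.06. The median of the 10 genes was 6.65 per kb, against 1.64 per kb over 5110 protein-coding genes with a transcript model. Of those 5110 genes, 1.88% had a density at or above that of *mei4*, and 0.0979% one at or above that of *mug9*. On the opposite strand of the same transcripts the median was 2.57 per kb in the 10 genes and 1.86 per kb in all. By these medians the excess was mostly on the strand of the RNA. *mei4* was an exception, with 11 copies on the sense strand and 10 on the opposite strand, or 4.96 and 4.51 per kb. The form TTAAAC made up 43 of the 120 copies, or 35.8%, against 23.3% of the copies in all genes. The genes were picked as Mmi1 targets, for which this hexamer is known, so these densities describe them and test nothing.

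**Figure D1:**
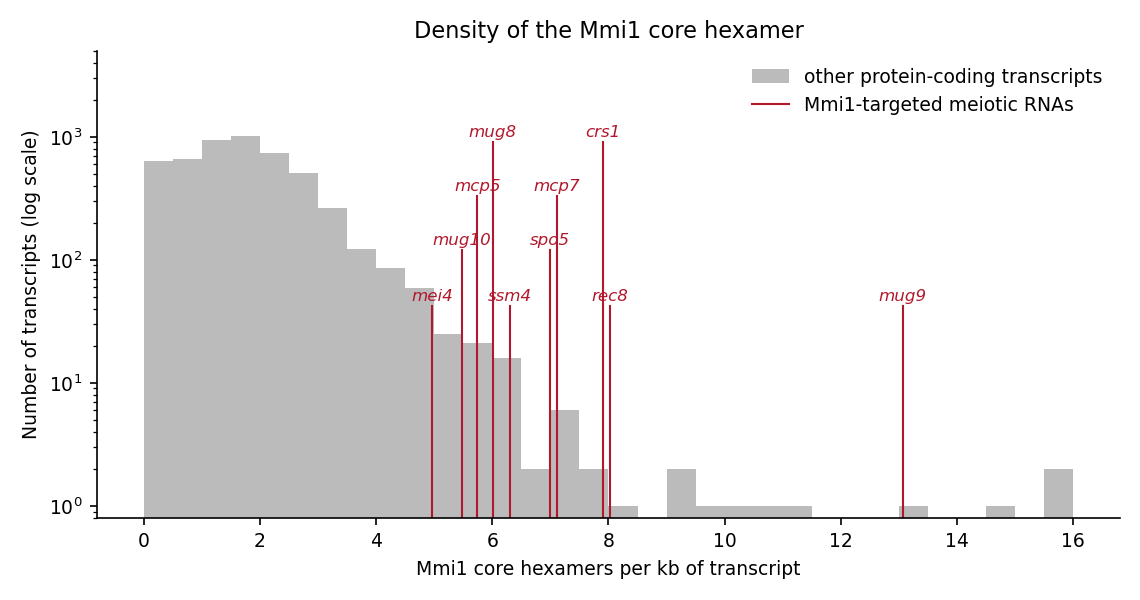
Grey bars give the number of protein-coding transcripts, on a log scale, by the number of Mmi1 core hexamers per kb of spliced transcript, in bins of 0.5 per kb, without the 10 targets. Red lines mark the targets, which lie between 4.96 and 13.06 per kb, to the right of the median of 1.64 per kb over all transcripts.

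In the libraries as a whole, total counts were 20929960 to 24696086 in *spx1*Δ and 11539278 to 15282140 in wild type, so the deeper libraries were all of 1 genotype. Normalized counts below are counts divided by the TMM-scaled library size and multiplied by the mean scaled size. *spx1* itself was at 2163, 2185 and 2062 normalized counts in *spx1*Δ and 5436, 5290 and 5153 in wild type, with a log2 fold change of -1.31 ± 0.05 (SE). Reads of *spx1* were thus fewer in every deletion library but did not disappear. According to the paper, a *kanMX* cassette took the place of the *spx1* reading frame, and Southern blots were used to check its integration. The source of the remaining reads was not tested. By edgeR's quasi-likelihood test at a Benjamini-Hochberg adjusted p of at most 0.05, 27.6% of the 6127 genes tested were higher and 25.4% were lower in *spx1*Δ. *spx1*Δ replicate 1 stood apart, with a median absolute log2 difference from the wild-type means of 0.214 over the genes tested, against 0.441 and 0.387 in replicates 2 and 3. Without it 2268 genes were higher and 2377 lower, in place of 1689 and 1555, and without *spx1*Δ replicate 3 or any 1 of the wild-type libraries 936 to 1031 were higher and 555 to 764 lower. Results below use all libraries unless a fit with 1 left out is named. Values without *spx1*Δ replicate 1 are given for only some of the genes that its removal changed.

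All 10 RNAs passed the filter on low counts. At an adjusted p of at most 0.05, 4 of them were higher in *spx1*Δ (*mei4*, *mcp7*, *crs1* and *mug8*), 1 was lower (*rec8*) and 5 were not called (*mcp5*, *ssm4*, *spo5*, *mug9* and *mug10*). The background was 27.6% of genes higher and 25.4% lower, or 21.2% and 30.2% of the 4986 protein-coding genes tested, and beside these shares the counts are no result about the RNAs as a group. The median log2 fold change of the 10 was 0.38, that of all genes tested was -0.01 and that of protein-coding genes was -0.08. *mei4* alone also passed the study's thresholds of a 2-fold change and a mean normalized count of 100 in the higher strain, which 7.51% of genes tested passed in the higher direction and 2.25% in the lower. The counts of calls moved with single libraries. Without *spx1*Δ replicate 1, 6 of the RNAs were higher and 1 was lower. Without *spx1*Δ replicate 3, or without any 1 of wild-type replicates 1, 2 and 3, only *mei4* was higher and none was lower, and without *spx1*Δ replicate 2, 3 were higher and none was lower. In bulk RNA, a change in the share of cells that hold an RNA and a change in its amount per cell cannot be told apart.

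**Figure D2:**
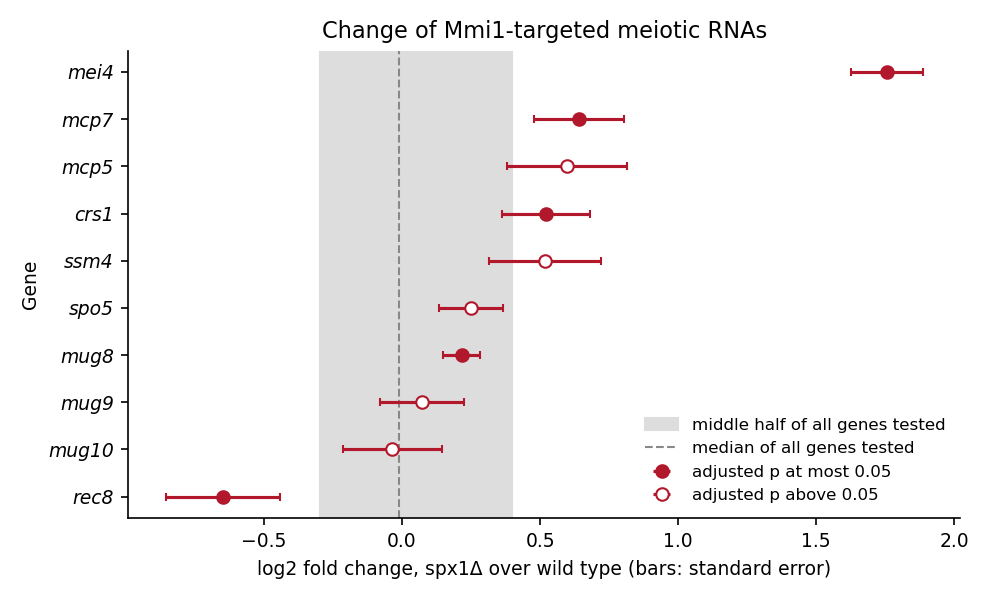
Points give the log2 fold change of each RNA, *spx1*Δ over wild type, with bars of 1 standard error (n = 3 libraries per strain), filled where the adjusted p was at most 0.05. *mei4* stands apart at 1.76, 8 RNAs lie between -0.04 and 0.64, most of them to the right of the dashed median of all genes, and *rec8* lies to the left at -0.65.

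*mei4* encodes the forkhead transcription factor that turns on the genes of the meiotic divisions and of sporulation. Its normalized counts were 373.9, 444.4 and 447.5 in *spx1*Δ and 132.9, 115.8 and 125.0 in wild type. The lowest *spx1*Δ library was well above the highest wild-type library. The means were 421.9 ± 41.7 in *spx1*Δ and 124.6 ± 8.59 in wild type (SD, n = 3 each), a log2 fold change of 1.76 ± 0.13 (SE), or 3.38-fold, with an adjusted p of 0.00105 in edgeR. It was called under each of 13 alternative analyses, with log2 fold changes of 1.70 to 1.83 and adjusted p-values of 4.38e-22 to 0.0152. Scaled by length as well as depth, as CPM (counts scaled to a common library size) per kb of transcript, *mei4* had 10.5 TMM-scaled CPM per kb in *spx1*Δ and 3.09 in wild type. That level is at or above 9.30% of 4981 protein-coding genes in *spx1*Δ and 3.49% in wild type, so the RNA stayed in the low range of the transcriptome in both strains.

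The *mei4* transcript is a single exon at chrII:1473068-1475285 on the plus strand and has a counted neighbour at each end. The end of *cdk9*, which encodes a kinase of transcription elongation, shares 115 bases with it on the same strand. *cdk9* had 2309, 1669 and 2024 normalized counts in *spx1*Δ and 2713, 2636 and 2703 in wild type, and was lower, with a log2 fold change of -0.42 ± 0.12 (SE) and an edgeR adjusted p of 0.0233. On the other side, 199 bases away on the opposite strand, the actin gene *act1* had a log2 fold change of 0.04 ± 0.06 (SE) and was not called. Neither of these counted neighbours was higher. The annotation also holds noncoding RNAs that were not analysed here, 8 in all over 6 of the 10 genes. Of these, 2 lie over *mei4* on the opposite strand, sharing 1479 and 219 bases with it, and 1 shares 1859 bases with *rec8*. Their part in the counts was not tested.

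*rec8*, the meiotic kleisin subunit of cohesin that holds sister chromatids through the first division, moved in the opposite direction. It had 77.7, 53.5 and 53.6 normalized counts in *spx1*Δ and 102.7, 89.7 and 97.5 in wild type. All *spx1*Δ libraries were below all wild-type libraries, with *spx1*Δ replicate 1 the nearest to them. The log2 fold change was -0.65 ± 0.21 (SE), a 1.57-fold fall, with an adjusted p of 0.0373 in edgeR. Over 13 alternatives it was called in 8, with log2 fold changes of -0.86 to -0.55 and adjusted p-values of 0.00141 to 0.133. Of the 6 fits with 1 library left out, the call held only without *spx1*Δ replicate 1. These were the lowest levels among the 10 RNAs per length in either strain, at 1.81 TMM-scaled CPM per kb in *spx1*Δ and 2.84 in wild type, from 63 to 105 raw counts per *spx1*Δ library and 55 to 85 per wild-type library. *orc1*, 107 bases downstream of *rec8* on the same strand, also fell (log2 fold change -0.46 ± 0.10 SE, edgeR adjusted p = 0.0113), and the upstream *atp7* was not called. The part of *orc1* in the *rec8* counts was not tested.

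*mcp7* encodes a meiotic coiled-coil protein that works with Meu13 in recombination. It had 190.3, 267.6 and 211.0 normalized counts in *spx1*Δ and 142.6, 145.1 and 141.3 in wild type. The wild-type libraries were within a narrow band, and all *spx1*Δ libraries lay above it. The log2 fold change was 0.64 ± 0.16 (SE), or 1.56-fold, with an adjusted p of 0.0192 in edgeR, and the call held in 9 of 13 alternatives and in 2 of the 6 that left out a library. Its transcript shares 596 bases with *ubp8*, a deubiquitinase gene on the opposite strand, which was at 820.3, 782.7 and 792.9 in *spx1*Δ and 685.1, 751.6 and 721.4 in wild type and was not called (log2 fold change 0.15, edgeR adjusted p = 0.112).

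*crs1* encodes a meiosis-specific cyclin. It had 82.2, 92.5 and 99.5 normalized counts in *spx1*Δ and 62.8, 66.8 and 61.3 in wild type, without overlap. The log2 fold change was 0.52 ± 0.16 (SE), with an adjusted p of 0.0328 in edgeR. This call was among the least stable, since it held in 6 of 13 alternatives, and the adjusted p with DESeq2 was 0.0597 in a range of 0.00985 to 0.129. On the opposite strand, 444 bases of *crs1* are shared with *ade9*, a gene of one-carbon metabolism at 6317, 6467 and 6852 normalized counts in *spx1*Δ and 4755, 4984 and 4402 in wild type. *ade9* rose by a similar log2 fold change, 0.47 ± 0.07 (SE), with an edgeR adjusted p of 0.00408. The kit marks strand, but no source used here gives the strand setting of the counting, and the part of *ade9* reads in the *crs1* counts was not tested.

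*mug8*, named for its increase in meiosis, was the exception in level. It had 1929, 1714 and 1909 normalized counts in *spx1*Δ and 1572, 1577 and 1630 in wild type. The strains did not overlap, but the change was small, with a log2 fold change of 0.22 ± 0.07 (SE), or 1.16-fold, and an adjusted p of 0.0336 in edgeR. It was called in 8 of 13 alternatives, with adjusted p-values of 0.0108 to 0.121. Per length it was at 43.7 TMM-scaled CPM per kb in *spx1*Δ and 37.6 in wild type, at or above 49.1% of protein-coding genes in *spx1*Δ and 41.6% in wild type. In wild type the other 9 RNAs were at or above 3.31% to 7.51% of protein-coding genes. *mug8* was thus not scarce in vegetative cells, although its transcript holds 14 copies of the hexamer. Its counted neighbours, *tif212* (206 bases upstream) and *SPAC32A11.02c* (124 bases downstream), lie on the opposite strand. Both rose, with log2 fold changes of 0.26 ± 0.05 (SE) and 1.41 ± 0.34 (SE). The part of these neighbours in the *mug8* counts was not tested.

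**Figure D3:**
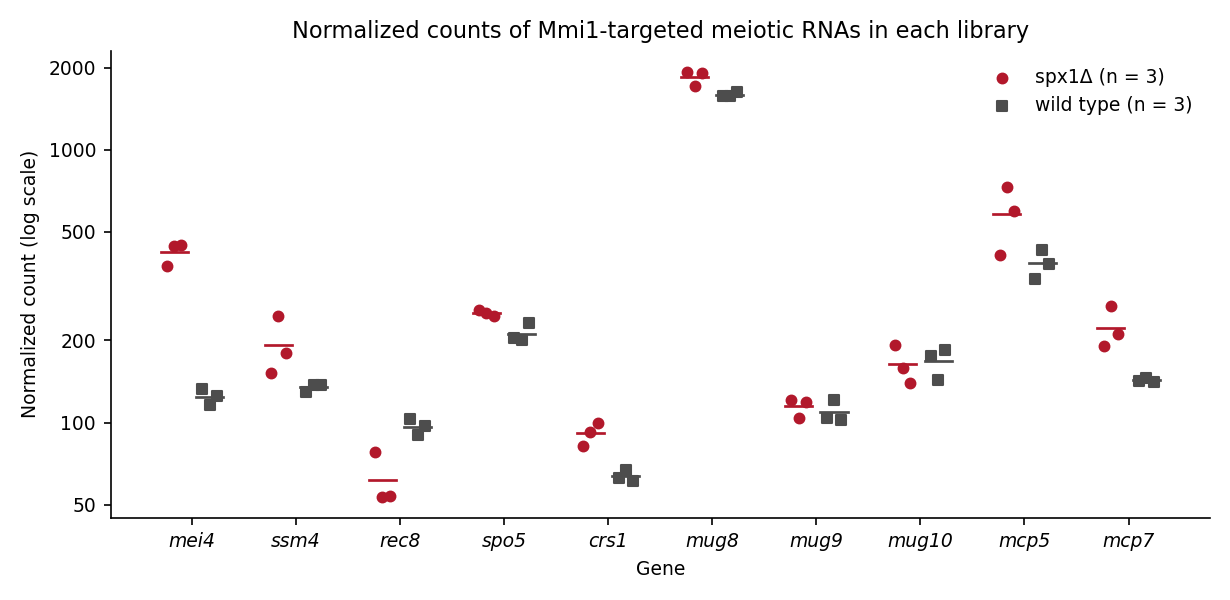
Each point is the normalized count of an RNA in 1 library, on a log scale, with *spx1*Δ in red to the left and wild type in grey to the right, and lines give the means of 3 libraries. *mei4* shows the widest gap, *rec8* is the RNA with all *spx1*Δ points below wild type, and *mug9*, *mug10* and *mcp5* overlap between strains.

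Of the 5 RNAs that were not called, 2 encode proteins that act on the dynein machinery of horsetail nuclear movement, the sweep of the nucleus in meiotic prophase. *mcp5*, whose product anchors dynein at the cell cortex, had 412.4, 729.9 and 597.2 normalized counts in *spx1*Δ and 337.1, 430.4 and 382.6 in wild type. *spx1*Δ replicate 1 lay within the wild-type range, and the other *spx1*Δ libraries were above it. The log2 fold change was 0.60 ± 0.22 (SE), with an adjusted p of 0.0558 in edgeR. It was called in 5 of 13 alternatives, and without *spx1*Δ replicate 1 the log2 fold change was 0.80, with an edgeR adjusted p of 1.6e-04, the lowest of a range up to 0.167. An antisense RNA, *num1-antisense-1*, covers all 3308 bases of *mcp5*. It had 626.3, 1861 and 1521 normalized counts in *spx1*Δ and 913.5, 1017 and 980.2 in wild type, was not called (log2 fold change 0.46 ± 0.36 SE, edgeR adjusted p = 0.307), and like *mcp5* was lowest in replicate 1 among the *spx1*Δ libraries. Whether reads passed between the 2 strands of this locus was not tested.

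*ssm4* encodes a meiotic dynactin component of the p150-Glued family. It had 151.8, 245.7 and 180.3 normalized counts in *spx1*Δ and 129.3, 136.9 and 137.5 in wild type. The strains did not overlap, but the *spx1*Δ libraries were spread more widely (SD 48.2 in *spx1*Δ and 4.60 in wild type), and the log2 fold change of 0.52 ± 0.20 (SE) had an adjusted p of 0.0687 in edgeR. Without *spx1*Δ replicate 1 the log2 fold change was 0.66, with an adjusted p of 0.00371, and in the other alternatives, where it reached up to 0.178, *ssm4* was not called.

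*spo5* encodes an RNA-binding protein needed for the second meiotic division and sporulation. It had 258.4, 253.0 and 245.9 normalized counts in *spx1*Δ and 204.2, 200.5 and 231.3 in wild type. The groups did not overlap, yet the log2 fold change of 0.25 ± 0.12 (SE) did not pass (edgeR adjusted p = 0.104, called in 1 of 13 alternatives). *spo5* shares 127 bases with *pcf1*, a chromatin assembly gene on the opposite strand, which was not called at an edgeR adjusted p of 0.946.

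*mug9* and *mug10*, both named for their increase in meiosis, had no measurable difference at this depth and spread. *mug9*, the RNA with the densest hexamers, had 120.7, 103.8 and 119.1 normalized counts in *spx1*Δ and 103.9, 120.6 and 102.5 in wild type (log2 fold change 0.07 ± 0.15 SE, edgeR adjusted p = 0.693). *mug10* had 193.2, 158.2 and 139.5 in *spx1*Δ and 175.2, 143.5 and 183.8 in wild type (log2 fold change -0.04 ± 0.18 SE, edgeR adjusted p = 0.874). The strains overlapped for both, neither was called in any of the 13 alternatives, and the sign of the *mug10* value turned in 4 of them.

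Compared by overlap alone, 6 of the 10 RNAs had all *spx1*Δ libraries above all wild-type libraries (*mei4*, *ssm4*, *spo5*, *crs1*, *mug8* and *mcp7*), 1 had all below (*rec8*) and 3 overlapped. Over all genes tested, 32.7% had all *spx1*Δ libraries above and 33.5% had all below. The replicates of *spx1*Δ were not alike in these RNAs. Set against wild type, the 10 RNAs had a median log2 difference of 0.24 in the first *spx1*Δ library, 0.39 in the second and 0.34 in the third, and the first was the nearest to wild type for 6 of the 10. Per length in wild type, *ssm4*, *crs1*, *mei4* and *rec8* lay close together at 3.59, 3.45, 3.09 and 2.84 TMM-scaled CPM per kb, where the libraries of *ssm4* and *crs1* overlapped, and likewise those of *mei4* and *rec8*, but not those of *crs1* and *mei4*. Above them, *mug10*, *mcp5*, *spo5* and *mcp7* were at 7.20, 6.37, 5.82 and 5.60 with overlapping neighbours, and *mug9* was above all of these at 8.70, without overlap. In *spx1*Δ the order of the means differed. *mcp5*, at 9.64, had a higher mean than *mug9* (9.14) and *mug10* (7.03), but its libraries overlapped those of both. *mcp7*, at 8.72, had a higher mean than *mug10* and *spo5* (6.93). The *mcp7* libraries overlapped those of *mug10* but not those of *spo5*. *mei4*, at 10.5, was second to *mug8* by mean, with a range of 9.27 to 11.1 that overlapped the ranges of *mcp5*, *mug9* and *mcp7*.

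Hexamer density and promoter letters were set beside the changes. Across the 10 RNAs, Spearman's rho between hexamers per kb and the log2 fold change was -0.37, a description over 10 genes that share the same 6 libraries. Outside the 10, 86 protein-coding genes had a hexamer density at or above that of *mei4*, and 77 of them were tested. Of these, 20.8% were higher and 23.4% were lower, beside the 21.2% and 30.2% of protein-coding genes, with a median log2 fold change of -0.05. In the promoters, taken as 250 bases before to 50 bases after the annotated gene start, the forkhead element GTAAACA was searched on both strands and matched only in *mei4*, once, where 16.5% of 5110 promoters held a match. The Ste11 element TTCTTTG, also searched on both strands, matched in none of the 10 and in 9.94% of all.

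**Figure D4:**
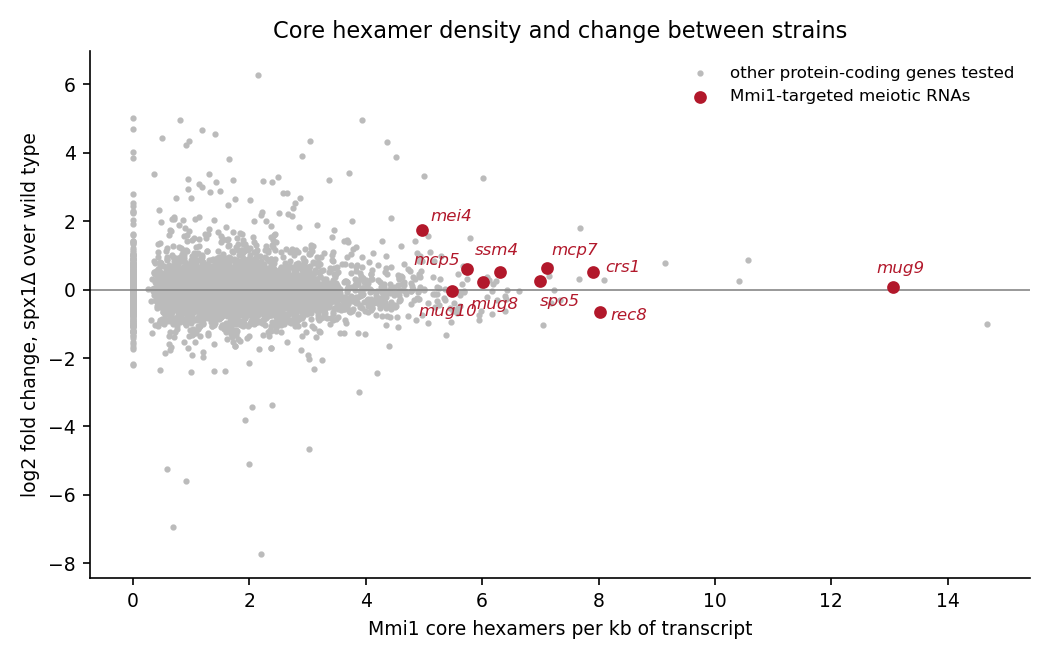
Each point is a protein-coding gene tested, placed by Mmi1 core hexamers per kb of transcript and by its log2 fold change, *spx1*Δ over wild type, with the 10 targets in red. The targets lie at 4.96 hexamers per kb or more, the largest rise among them, *mei4*, is at the lowest density, and *mug9*, at 13.06 per kb, is near 0.

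Among 18 genes of Mmi1, its partners, the exosome and its antagonists, 7 were higher, 6 were lower and 5 were not called, with a median log2 fold change of 0.07. The background of 27.6% higher and 25.4% lower makes this count no result about the list, and single genes are given. *mmi1* had 3529, 4787 and 4841 normalized counts in *spx1*Δ and 2910, 3116 and 2826 in wild type, and rose, with a log2 fold change of 0.57 ± 0.13 (SE) and an edgeR adjusted p of 0.013. *erh1*, whose product forms a complex with Mmi1, fell, with 563.4, 300.1 and 341.1 in *spx1*Δ and 828.9, 865.7 and 826.5 in wild type (log2 fold change -1.06 ± 0.23 SE, edgeR adjusted p = 0.0123). The scaffold protein gene *red1* rose, with a log2 fold change of 0.44, as did *rmn1* (0.71), an RNA-binding partner of the Red1 complex. Without *spx1*Δ replicate 1, 7 of the 18 were higher and 8 lower. Without *spx1*Δ replicate 3 these were 4 and 0, without wild-type replicate 1 or 3 they were 4 and 2, without wild-type replicate 2 they were 6 and 2, and without *spx1*Δ replicate 2 they were 7 and 4.

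The exosome and poly(A) genes on that list were split. *rrp6*, its nuclear exonuclease, rose (log2 fold change 0.40), as did the cofactors *cti1* (0.62) and *mpp6* (0.44), whereas the core nuclease *dis3* fell, with a log2 fold change of -0.77 ± 0.22 (SE). *pla1* and *pab2* fell slightly, with log2 fold changes of -0.22 and -0.15. The cap-binding gene *cbc1* (-0.69) and *ars2* (-0.58), listed as *pir2* and joining the cap to the exosome, fell as well, and *cbc2*, *red5*, *mtl1* and *iss10* were not called. The antagonists of Mmi1 were split too. The noncoding *sme2* RNA had 346.5, 531.2 and 467.0 normalized counts in *spx1*Δ and 176.4, 200.5 and 225.1 in wild type, without overlap, and rose (log2 fold change 1.16 ± 0.19 SE, edgeR adjusted p = 0.0056). *mei2* had 1250, 464.7 and 546.2 in *spx1*Δ and 1328, 1296 and 1509 in wild type, all *spx1*Δ libraries being lower but replicate 1 only just, and its log2 fold change of -0.87 ± 0.37 (SE) did not pass (edgeR adjusted p = 0.0828). Over the alternatives the adjusted p of *mei2* was between 5.25e-07 and 0.223, the lowest without *spx1*Δ replicate 1.

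**Figure D5:**
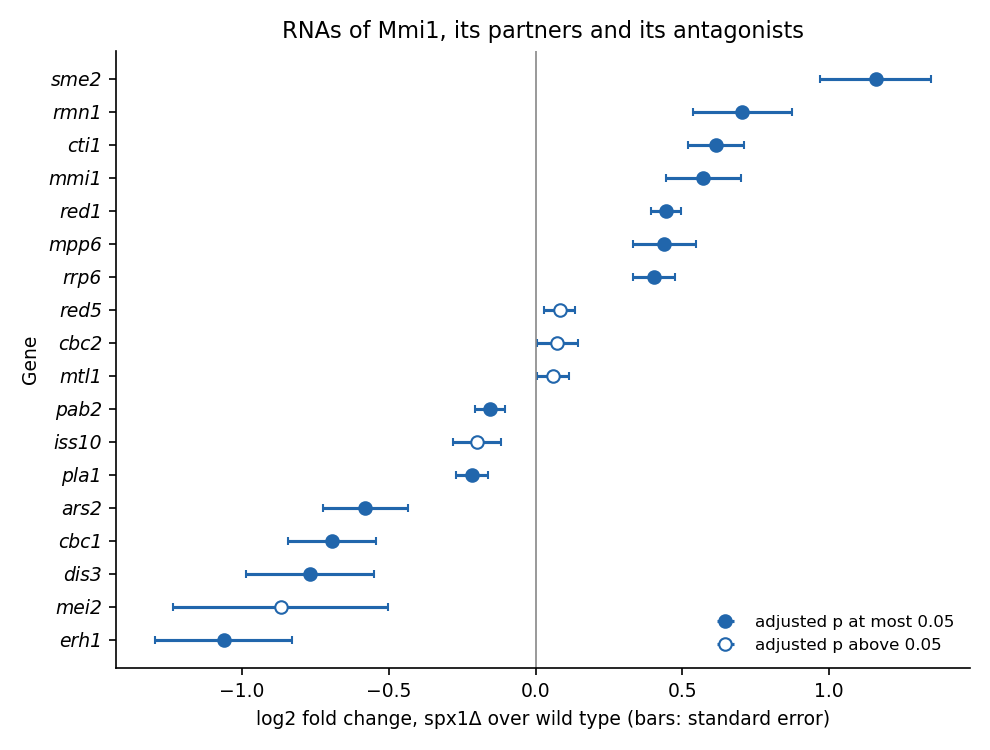
Points give the log2 fold change, *spx1*Δ over wild type, of 18 genes of Mmi1, its partners, the exosome and its antagonists, with bars of 1 standard error (n = 3 libraries per strain), filled where the adjusted p was at most 0.05. The genes spread on both sides of 0, with *sme2* highest at 1.16 and *erh1* lowest at -1.06.

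Genes of the switch into meiosis were followed as a further list, which shares *mei2* and *sme2* with the list above. Of 6, 3 were higher (*mei3*, *sme2* and *pat1*) and 3 were not called (*ste11*, *mei2* and *rep1*), beside the 27.6% of all genes that were higher and the 25.4% that were lower. *mei3*, which encodes the inhibitor of the Pat1 kinase, had 94.8, 499.6 and 341.1 normalized counts in *spx1*Δ and 9.67, 9.78 and 10 in wild type, a log2 fold change of 4.97 ± 0.73 (SE) with an edgeR adjusted p of 0.00444. *spx1*Δ replicate 1 was the lowest of its group, and still far above wild type. *ste11*, encoding the regulator of mating and early meiotic genes, was at 5946, 5709 and 6408 in *spx1*Δ and 6390, 6409 and 6342 in wild type. Thus *mei4* rose in libraries in which *mei3* and *sme2* were also higher. In the same libraries *ste11* was not called, and *mei2* was below all wild-type libraries in each, though not called.

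Of 12 genes known to depend on Mei4 in meiosis, 9 had enough counts to test. Among these 5 were higher, 1 was lower and 3 were not called, with a median log2 fold change of 0.25, beside the 27.6% of all genes that were higher. *atf31*, encoding a bZIP transcription factor, had 1040, 3119 and 2540 normalized counts in *spx1*Δ and 142.6, 151.6 and 178.8 in wild type (log2 fold change 3.82 ± 0.43 SE, edgeR adjusted p = 0.00281). *mde6*, already abundant in wild type, had 15290, 37860 and 31210 in *spx1*Δ and 8352, 9727 and 9871 in wild type (log2 fold change 1.59 ± 0.31 SE, edgeR adjusted p = 0.00915). The gene with *mde1* among its other names rose with a log2 fold change of 4.33, and *mde4* and *mde10* rose by 0.37 and 0.25 on the log2 scale. The septin gene *spn5* fell, with a log2 fold change of -0.63, and *spo6*, encoding a kinase subunit of the second division, was at 97.7, 155.7 and 153.1 in *spx1*Δ and 217.5, 185.9 and 196.3 in wild type and was not called. *mde2*, *mde3* and *mde7* were below the filter, with at most 12.2 normalized counts in any library. The count of higher genes was 3 without *spx1*Δ replicate 3 and without any 1 of wild-type replicates 1, 2 and 3.

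Of 11 genes for partners of the proteins that these RNAs encode, 3 were higher, 4 were lower and 4 were not called, with a median log2 fold change of -0.23. These counts lie near the 21.2% higher and 30.2% lower of protein-coding genes and are no result about the list. *meu13*, the partner of *mcp7*, had 231.7, 784.3 and 522.3 normalized counts in *spx1*Δ and 116.0, 169.6 and 152.5 in wild type, and rose (log2 fold change 1.82 ± 0.44 SE, edgeR adjusted p = 0.0163). Around *rec8*, the cohesin genes *psc3* (log2 fold change -0.39) and *rad21* (-0.61), the mitotic kleisin, fell, *psm1* rose (0.48), and *rec11* and *psm3* were not called. Among dynein and dynactin genes *arp1* fell, with a log2 fold change of -1.04, and *dhc1* and *dlc1* were not called. *cdc2*, the kinase that cyclins bind, rose by 0.43 on the log2 scale, and *slp1*, an activator of the anaphase-promoting complex, fell, with a log2 fold change of -0.91. Without *spx1*Δ replicate 1 the lower genes numbered 8 and the higher genes 3, which leaves none of the 11 uncalled. The higher genes numbered 0 without wild-type replicate 3, wild-type replicate 1 or *spx1*Δ replicate 3, and 1 without wild-type replicate 2.

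The label of vegetative growth was set against marker lists. Of 13 genes of sporulation 12 were tested, 3 were higher (*meu14*, *isp3* and *spn7*), 1 was lower (*spn5*) and 8 were not called, at or below the 27.6% higher and 25.4% lower of all genes. The summed level of the list was 17626 to 18210 normalized counts in *spx1*Δ and 16186 to 16526 in wild type. Most of this sum came from *spo20* and *spo15*, with means of 7629 and 5069 in wild type, and neither was called. The sum therefore says little about the scarcer genes of the list. No gene of the list was at 0 in all libraries, but *spo4* was at most at 3.40 in any. Of 10 genes typical of growing cells 1 was higher, 3 were lower and 6 were not called. Beside the 27.6% higher and 25.4% lower of all genes, such counts over a short list are no result about it. Sums over these 10 genes were 235174 to 388490 in *spx1*Δ and 414432 to 452338 in wild type, with *spx1*Δ replicate 1 the nearest to wild type. The gap lay mainly in the glycolytic genes *pgk1* (log2 fold change -1.67), which fell, and *fba1* and *tdh1*, which were not called with all libraries. The cyclin gene *cdc13* and *nda2* also fell, with log2 fold changes of -0.42 and -0.33, *cdc2* rose (0.43), and *nda3* was not called (-0.10). *act1*, *rpl301* and *tef102*, which were not called, had log2 fold changes of 0.04, -0.05 and -0.04. Mating genes moved as well. The P-factor gene *map2*, of the *h+* type, had 901.0, 4713 and 3097 normalized counts in *spx1*Δ and 89.4, 89.7 and 90.0 in wild type, while *map3* was not called. Of 5 genes of the opposite type 4 were tested, *mfm3* and *mam2* were higher and *mam1* was lower, with sums of 1858 to 3603 in *spx1*Δ and 1520 to 1734 in wild type. The part of these shifts in the values of the Mmi1 targets was not tested. *mei4* was lowest in replicate 1 among the *spx1*Δ libraries, as were *map2*, *mei3* and *atf31*, which differed more between these libraries than *mei4* did.

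The genes whose pattern was most like the mean of the 10 targets were sought among 4781 protein-coding genes with a mean of at least 100 counts per library, by Pearson's r of the log2 values over the 6 libraries. They were *SPAC29E6.07* (0.997), *SPBC18A7.02c* (0.996), *ero12* (0.995), *tif213* (0.995) and *hst4* (0.995). All 5 were higher in *spx1*Δ, with log2 fold changes of 0.16 to 1.84, and the coefficients largely restate the gap between the strains. *SPAC29E6.07* was the nearest to *mei4* in size, at 210.3, 291.2 and 240.8 normalized counts in *spx1*Δ and 67.7, 62.0 and 76.3 in wild type.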

How the data were processed

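Poly(A)+ RNA-seq libraries of 3 *spx1*Δ and 3 wild-type cultures were analysed. Design notes state that the wild-type cultures were grown and sequenced together with the mutant ones. The authors mapped reads to ASM294v2 with HISAT2 2.1.0, handled alignments with SAMtools and counted exonic reads with HTSeq 0.10.0; no source used here gives its strand setting. The deposited counts are whole numbers per gene, before scaling. The other deposited table holds the DESeq2 comparison of the authors, with mean signals per strain, log2 fold changes, p-values and a score, the Wald statistic; it was used for gene names only, and none of its values are given. A duplicate ID with no counts was dropped.

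After TMM scaling and filterByExpr, counts were tested with glmQLFit and glmQLFTest of edgeR 4.0.16 (R 4.3.3, limma 3.58.1, DESeq2 1.42.0), without further terms, and Benjamini-Hochberg adjustment was over 6127 genes. The SE is the absolute log2 fold change over the square root of F. The script was tested on simulated data. Alternatives were DESeq2, limma-voom, RLE factors, library size alone, no filter, protein-coding genes only, a replicate block and each library left out. Total counts were 11539278 to 24696086, so counting error weighs mainly on the RNAs with under 100 counts per library.

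The 10 genes and all lists were chosen with earlier results of these data known. Some lists share genes: *mei2* and *sme2* are in the elimination and switch lists. Likewise *spn5* and *spo6* are in the Mei4-dependent and sporulation lists, and *cdc2* is among the partners and the genes of growing cells. Named are the 10 genes, *spx1*, the 5 genes of most similar pattern, and part of the listed, overlapping and neighbouring genes. *mde1* was matched to the ID with this name among its other names, since the ID listed as *mde1* is an unrelated enzyme gene. Hexamers and promoter letters were counted in RefSeq gene models of ASM294v3, in which 5110 of 5126 protein-coding IDs were matched.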

Additional observations from a re-analysis of the deposited data

How the results depend on the processing

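Among the 13 alternatives, no count of calls moved by more than 1.5 times under another test, scaling, filter, set of genes or the block, and *mei4* was the RNA past 2-fold in each. With 1 library left out, the 10 RNAs had 1 to 6 calls higher and 0 to 1 lower, and all genes had 936 to 2268 higher and 555 to 2377 lower. The elimination list had 4 to 7 higher and 0 to 8 lower, the switch list 2 to 3 higher, the Mei4-dependent list 3 to 5 higher and the partners 0 to 3 higher and 3 to 8 lower. The cause was not tested. With protein-coding genes alone, 6 of the 10 were higher. Values that turned sign were near 0: *mug10* to 0.009 with library size alone, 0.038 with protein-coding genes only, 0.069 without *spx1*Δ replicate 3 and 0.041 without wild-type replicate 3; *pcf1* to 0.005 with RLE factors, 0.044 with library size alone, 0.073 with protein-coding genes only, 0.032 without *spx1*Δ replicate 1 and 0.001 without wild-type replicate 3; *rep1* to 0.015 without wild-type replicate 3; and *atf21* to -0.101 without wild-type replicate 2. With 1 library left out, the log2 fold changes ranged from -0.182 to 0.069 for *mug10*, -0.217 to 0.015 for *rep1* and -0.027 to 0.032 for *pcf1*. For *atf21* they ranged from -0.101 to 0.549 over the fits without a wild-type library. It had no value in the fits without an *spx1*Δ library. Over single genes, 866 values kept direction and side of the threshold, 145 lost a call, 25 gained one and 11 turned sign. For a check of pairing, the mean of its strain was subtracted from the log2 CPM of each gene in each library. The remaining deviations of same-numbered libraries correlated at 0.117, 0.033 and 0.054, so the numbers were not taken as pairs. In these deviations, *spx1*Δ replicates 2 and 3 each correlated best with another number. These values are not correlations of the libraries themselves. With the replicate block, 3 of the 10 RNAs were higher and 1 lower, with 1521 genes higher and 1400 lower in all. The lowest counts were those of *crs1* and *rec8*, with 41 to 117 per library.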
